A study of Drosophila melanogaster with 4 samples.

Results

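The wild-type adult testis of Drosophila melanogaster was described from the 2 libraries labelled WT, out of 4 libraries in the series, which also holds testes mutant for the histone methyltransferase gene Su(var)3-9. Both libraries were chosen by that label alone, and the mutant libraries were not used for any value. Each was made from the polyadenylated RNA of 50 testes of males 3 days old, from flies kept at 23 °C, and the series describes the replicates as biological. The genotype is given as wild type with no strain name. Levels are FPKM, which the authors' processing scales to the length of the transcript and the size of the library. Levels of different genes are set side by side on that scale, with less certainty for short transcripts. Each level carries the 95% interval that the authors' quantification gave within that library. All 16510 gene names listed in the libraries were described, and paired levels below belong to replicate 1 and replicate 2 in that order.

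The testis holds germ cells at every step of spermatogenesis, enclosed by somatic cyst cells and a muscular sheath. Stem cells at the hub give rise to spermatogonia, which become spermatocytes, pass through meiosis and elongate into spermatids with very long tails. Spermatocytes transcribe most of the genes that spermatids need and store these mRNAs untranslated, and spermatid nuclei later exchange histones for protamine-like proteins. In such whole-organ RNA, fewer cells of a type and less RNA per cell cannot be told apart.

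Genes at 1 FPKM or more in both libraries numbered 10081, or 61.1% of all names. At 10 FPKM or more in both there were 5970 genes, at 100 FPKM or more 1658, and at 1000 FPKM or more 89. The median of the genes above 0 was 10.3 FPKM in each library, and the middle of the distribution ran from 2.52 to 43.2 FPKM in replicate 1 and from 2.42 to 42.6 FPKM in replicate 2 (quartiles). The top 1% of these genes lay above 753 and 735 FPKM. A further 3475 names (21.0%) were listed at 0 in both libraries, 786 at 0 in replicate 2 alone and 537 at 0 in replicate 1 alone.

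The summed FPKM was concentrated in few genes. The most abundant gene, CG18628, held 3.63% and 2.85% of it, the 10 first genes 10.5% and 9.39%, and the 30 first 18.5% and 18.4%. The 100 most abundant genes held 31.3% ± 0.464 (SD, n = 2 libraries), the 1000 first 66.6% ± 0.0703 and the 5000 first 95.5% ± 0.0721. In replicate 1, 402 genes made up 50% of the summed FPKM and 3255 made up 90%, and in replicate 2 the numbers were 412 and 3209. Replicate 1 was 1.08 percentage points above replicate 2 at 10 genes and 0.177 points above it at 30 genes. The 30 first genes include snoRNA:Or-CD8, which held 0% and 0.903% of the summed FPKM. Its level in replicate 2 rested on an estimated 2 fragments, so these gaps are not directly comparable.

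**Figure D1:**
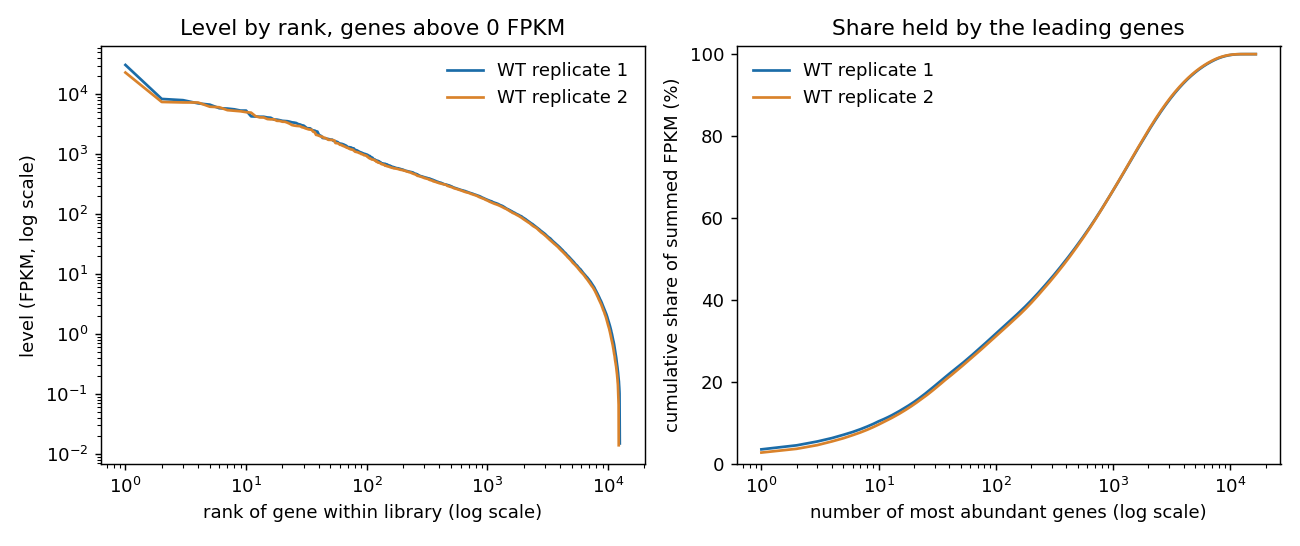
Left, the level of each gene above 0 (FPKM, log scale) against its rank in the library (log scale). Right, the cumulative share of summed FPKM (%) against the number of most abundant genes (log scale). Blue is WT replicate 1 and orange WT replicate 2. With each library ranked on its own, the 100 first genes held 31.8% in replicate 1 and 31.2% in replicate 2, and replicate 1 lies above replicate 2 over the first genes, which include CG18628.

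CG18628 (3L, 10639740 to 10640136, dm6), a protein-coding gene known by its number only, stood at 30924 and 23076 FPKM. Its longest annotated transcript is 334 bases, and its intervals in the libraries had no common point (1.34 times higher in replicate 1). The next genes were CG31226 (3R, 18851305 to 18851798) at 8375 and 7458 FPKM, CG31740 (2L, 18008953 to 18009694) at 7992 and 7305 FPKM, and Mst87F (3R, 13827151 to 13828008) at 7070.4 and 6218 FPKM. CG18628 was thus more than 3 times as abundant as the gene ranked next in either library. CR17567 followed at 6729.8 and 6086 FPKM, a locus listed under a non-coding name that the annotation used here classes as protein coding (CG46059). CG31788 was at 5863 and 5445 FPKM, CG30430 at 5786 and 5318 FPKM, and CG17376 at 5355 and 5039 FPKM.

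Of the 30 most abundant genes, 27 were protein coding and 18 were known by a CG or CR number only. The named ones were mostly genes of the spermatid. Mst87F, Mst84Da, Mst84Db, Mst84Dc and Mst84Dd encode small proteins of the sperm tail with repeats of cysteine, glycine and proline. S-Lap1 (4064 and 4111 FPKM) and loopin-1 (3581 and 3824 FPKM) encode leucyl aminopeptidases found in sperm, and ocn (3045 and 2943 FPKM) is a testis gene of the janus cluster. The others were the ribosomal protein gene RpL41 (4224 and 3599.9 FPKM) and the metallothionein gene MtnA (3612 and 2979 FPKM), whose product binds copper and other metals.

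The remaining unnamed genes among the 30 differed by small ratios between the libraries. The intervals of CG12853, CG12860, CG12861 and CR32657 had no common point, each higher in replicate 1 by 1.08 to 1.13 times. Those of the others in this paragraph overlapped. CG4836 was at 4228 and 4299 FPKM, CG12699 at 4111 and 4122 FPKM, CG31468 at 3798 and 3869 FPKM and CG34168 at 3559.8 and 3482 FPKM. CG12853 was at 4260.5 and 3825 FPKM and CG15219 at 3784 and 3615 FPKM. CG12860 and CG12861, neighbours on 2R, were at 3325 and 3073 FPKM and at 3191 and 2962 FPKM, and CG31820 and CG31639 at 3007 and 2828 FPKM and at 2854 and 2707 FPKM. The non-coding RNA CR32657, the leading gene of the X chromosome, was at 3409 and 3016 FPKM.

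A pair of the 30 rested on almost no fragments. The small nucleolar RNA snoRNA:Or-CD8, with an annotated length of 92 bases, was listed at 0 in replicate 1 and at 7324 FPKM in replicate 2, where its interval ran from 0 to 17695 FPKM. The spliceosomal snRNA:U6atac:29B, 97 bases long, was at 3377 and 3492 FPKM. The intervals of both correspond to an estimated 2 fragments per library above 0. On transcripts this short, single fragments gave very high levels, and the rank of these RNAs is not a measure of abundance. The microRNA precursor mir-995, among the 100 most abundant at 3138 FPKM in replicate 1 and listed at 0 in replicate 2, rested on 1 fragment.

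**Figure D2:**
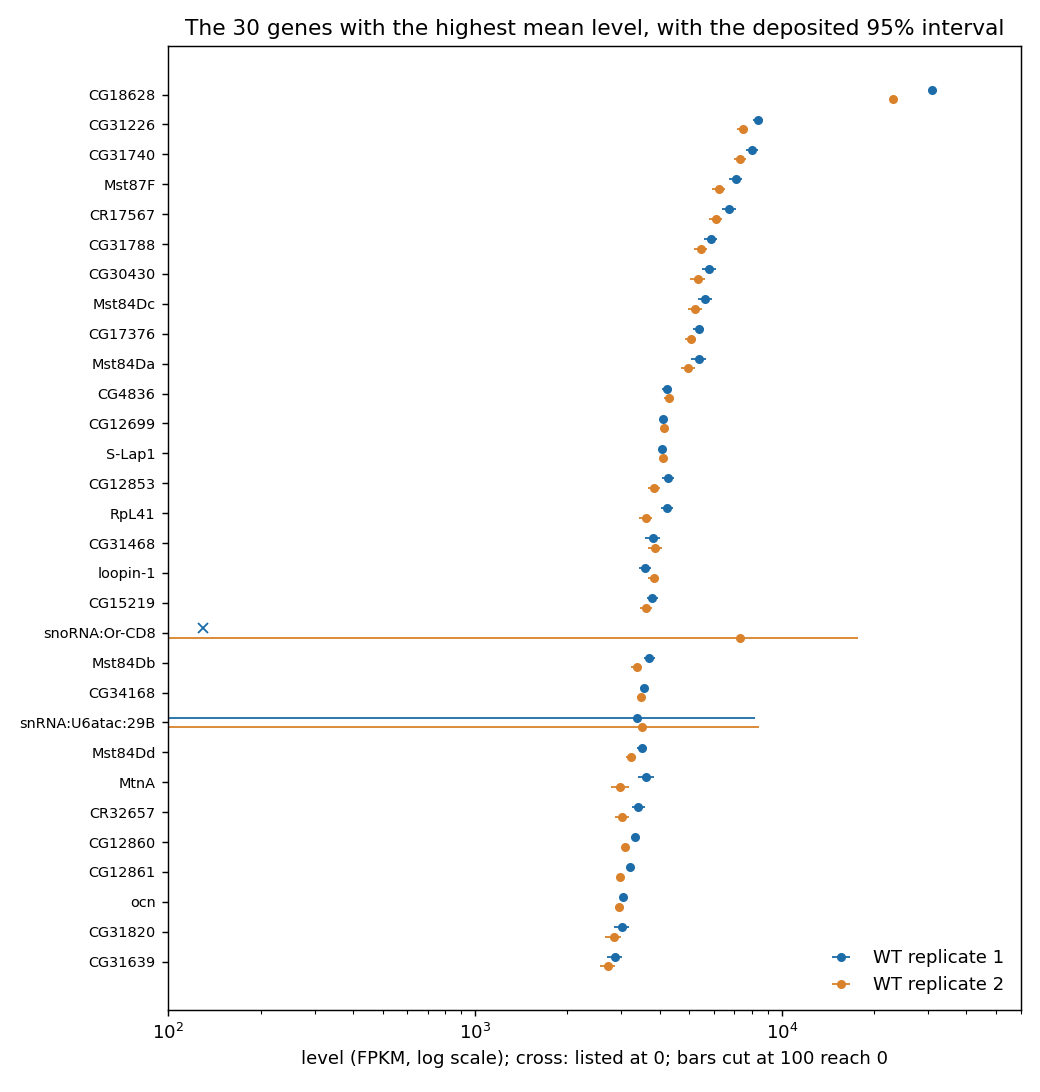
Level (FPKM, log scale) of the 30 genes with the highest mean, ordered downwards by it, with the deposited 95% interval as a bar. Blue is WT replicate 1, orange WT replicate 2, a cross a gene listed at 0, and bars that reach the left edge extend to 0. CG18628 stands alone at 30924 and 23076 FPKM, and the bars of snoRNA:Or-CD8 and snRNA:U6atac:29B span the whole range down to 0.

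Mostly the same genes led both libraries. Ranked separately, they shared 28 of their 30 and 95 of their 100 first genes. Among the exceptions was Mst57Db, ranked 11 in replicate 1 at 4292 FPKM and listed at 0 in replicate 2. Of the 10749 genes whose mean reached 1 FPKM, 671 or 6.24% had intervals with no common point, 434 (4.04%) higher in replicate 1 and 237 (2.2%) higher in replicate 2. Among the 100 most abundant the number was 25, of which 18 were higher in replicate 1 and 7 in replicate 2, and among the 30 most abundant it was 11, all higher in replicate 1. The intervals narrow as levels rise, and the differences were small: of the 97 genes of the 100 that were above 0 in both libraries, 84 differed by less than 1.1-fold. The median ratio of the larger to the smaller level was 1.05. The largest was 1.38, for scpr-C at 1315 and 951 FPKM.

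Short transcripts were common among the leading genes. The longest annotated transcript had a median of 991 bases in the 100 most abundant genes and 1710 bases in all genes of mean 1 FPKM or more, and 51 of the 100 were under 1000 bases, against 25.5% of all. The median exon number was 2 against 3. Because FPKM divides by length, the ranking shifts towards long genes when each level is multiplied by the longest transcript: 61 of the 100 remained among the first 100. The smooth gene sm, which encodes an RNA-binding protein, then came first (1281 and 1244 FPKM, transcript of 15344 bases), followed by CG4836 and by Syp (1078 and 1181 FPKM), another RNA-binding protein gene. CG18628 ranked 4 on this scale, with 0.771% and 0.579% of the length-weighted sum. The longest annotated transcript need not be the one used in the testis. Whether FPKM runs too high for short transcripts was not tested, and multiplying by length would not remove such an excess.

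Leading genes lay close together. Of the 100 most abundant genes, 29 had another of the 100 within 10 kb, while 3.10% of the 10749 genes at a mean of 1 FPKM or more (333 genes) had one that near. They formed 13 groups. The largest was the Mst84D cluster on 3R (7363307 to 7366262), whose 4 genes held 2.13% and 2.07% of the summed FPKM: Mst84Dc was at 5620.1 and 5213 FPKM, Mst84Da at 5353 and 4948 FPKM, Mst84Db at 3704 and 3363 FPKM and Mst84Dd at 3492 and 3231 FPKM. Others were CG18449, CG2127 and CG8701 on 2R, CG17376 and CG17377 on 2L, S-Lap1 and S-Lap2 on 3L, ocn and janB on 3R, and the non-coding CR32657 and CR32658 on X. The sequences of the Mst84D genes were not compared. Where such copies are similar enough for fragments to be assigned to either, their single levels are less certain than their sum.

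The genes of early germ cells and of the somatic stem cell niche were low. All 10 hub and cyst cell genes found were at 1 FPKM or more in both libraries, with a median of 5.79 FPKM, below the 14.4 FPKM of all genes of mean 1 FPKM or more. Fas3, an adhesion protein of the hub, was at 16.0 and 10.9 FPKM with separated intervals, os, the gene of the JAK-STAT ligand Unpaired, at 11.3 and 11.3 FPKM, eya, a transcriptional cofactor of cyst cells, at 11.2 and 10.7 FPKM, and esg, a transcription factor of the hub and stem cells, at 11.0 and 9.89 FPKM. Of 11 stem cell and spermatogonial genes, 7 reached 1 FPKM in both libraries. Their median was 2.97 FPKM with aub and nos, which were listed at 0 in both libraries, and 5.94 FPKM without them. The highest were mei-P26, which limits germ cell growth and division, at 52.7 and 55.9 FPKM, and bgcn, the partner of bam, at 39.5 and 37.9 FPKM. The germline helicase gene vas was at 15.1 and 16.4 FPKM and the germline gap junction gene zpg at 7.72 and 5.86 FPKM.

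Transcripts of spermatocyte regulators were at intermediate levels. The testis-specific TAF proteins and the testis meiotic arrest complex switch on the spermatid programme. Of 12 of their genes, 11 were at 1 FPKM or more in both libraries, with a median of 22.6 FPKM and no separated intervals. The TAF12 form Taf12L was the highest at 93.1 and 89.0 FPKM, followed by vis at 44.8 and 43.5 FPKM, sa at 40.8 and 35.2 FPKM and topi at 39.4 and 38.7 FPKM. The 8 genes of the meiotic divisions had a median of 67.0 FPKM. Among them bol, an RNA-binding protein needed for entry into meiosis, stood apart at 697 and 713 FPKM, ahead of the kinase gene polo at 179 and 169 FPKM. The Cdc25 phosphatase gene twe was at 99.5 and 98.9 FPKM and CycB at 79.1 and 68.2 FPKM.

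The highest list medians were those of sperm structure. The 6 sperm chromatin genes found had a median of 447 FPKM and overlapping intervals throughout. Mst77F, a linker histone-like protein, was at 1754 and 1721 FPKM, Mst33A at 552 and 579 FPKM, and the protamine genes Mst35Bb and Mst35Ba at 505 and 497 FPKM and at 394 and 389.5 FPKM. The 7 genes of the cysteine-glycine-proline family had a median of 3533 FPKM and held 3.21% and 3.10% of the summed FPKM, and 6 of them were among the 100 most abundant genes. A list of 18 other sperm tail and late spermatid genes had a median of 1723 FPKM, with 11 among the 100 most abundant, and held 3.40% and 3.64%. Its leading members S-Lap1, loopin-1, ocn and S-Lap7 were at 2702 FPKM or more.

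The comet and cup genes are transcribed after meiosis, when most transcription in the male germ line has stopped. All 19 found were at 1 FPKM or more in both libraries, with a median of 211 FPKM. The highest, w-cup, was at 1461 and 1377 FPKM and was the member among the 100 most abundant genes. It was followed by soti, which acts in caspase control during sperm individualization, at 559.7 and 526 FPKM, schuy at 432 and 422 FPKM and boly at 429 and 419.7 FPKM. The lowest, s-cup, was at 3.19 and 3.25 FPKM.

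The sheath and the general genes of the cell gave the scale. The 11 muscle genes were all at 1 FPKM or more, with a median of 23.6 FPKM. The muscle actin genes Act87E and Act57B were at 311 and 322 FPKM and at 75.0 and 78.1 FPKM, the myosin light chain gene Mlc1 at 32.1 and 25.9 FPKM, and the troponin T gene up at 28.0 and 25.6 FPKM. The myosin heavy chain gene Mhc (13.8 and 16.8 FPKM) and bt (3.90 and 5.14 FPKM) had separated intervals, both higher in replicate 2. Of 11 general genes, 10 were at 1 FPKM or more, with a median of 196 FPKM. Of these, alphaTub84B was at 1478 and 1532 FPKM, Ubi-p63E at 815 and 603 FPKM, Ef1alpha48D at 570.5 and 552 FPKM and Act5C at 394 and 349.9 FPKM. Of 13 genes of mitochondrial energy metabolism, 12 were at 1 FPKM or more, with a median of 89.5 FPKM. The cytochrome c gene Cyt-c-d led, followed by the respiratory complex gene ox at 692 and 677 FPKM. The ADP/ATP carrier gene Ant2 was at 512 and 482 FPKM and Idh at 249.5 and 234 FPKM. The Ant2 locus (X, 10778954 to 10786907) covers most of that of the carrier gene sesB (10780893 to 10786958), listed at 0 in both libraries. Fragments of the shared stretch can be assigned to either gene, so the level of Ant2 cannot be read separately. Lists for fat body, hemocytes and neurons had low medians, of 1.12 FPKM for 8, 1.81 FPKM for 6 and 0.58 FPKM for 5 genes. Accessory gland genes, described below, were high in replicate 1. Of the neuronal genes, brp was at 11.4 and 12.7 FPKM and nSyb at 8.76 and 8.32 FPKM. Syt1 was at 0.484 and 0.684 FPKM and elav at 0.525 and 0.517 FPKM. Rfabg led the fat body list at 8.28 and 8.47 FPKM, before Yp3 at 3.24 and 3.40 FPKM. Lsp2 was at 2.81 and 2.88 FPKM and Lsp1gamma at 1.13 and 1.25 FPKM. The hemocyte gene Hml was at 3.95 and 3.65 FPKM and srp at 3.62 and 3.85 FPKM. Pxn was at 2.91 and 3.67 FPKM and NimC1 at 0.236 and 0.442 FPKM. Without the hemocyte gene listed at 0 in both libraries, the hemocyte median was 3.29 FPKM. The fat body genes Yp2, at 0.126 FPKM in replicate 1, and to, at 0.448 FPKM in replicate 2, were listed at 0 in the other library.

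**Figure D3:**
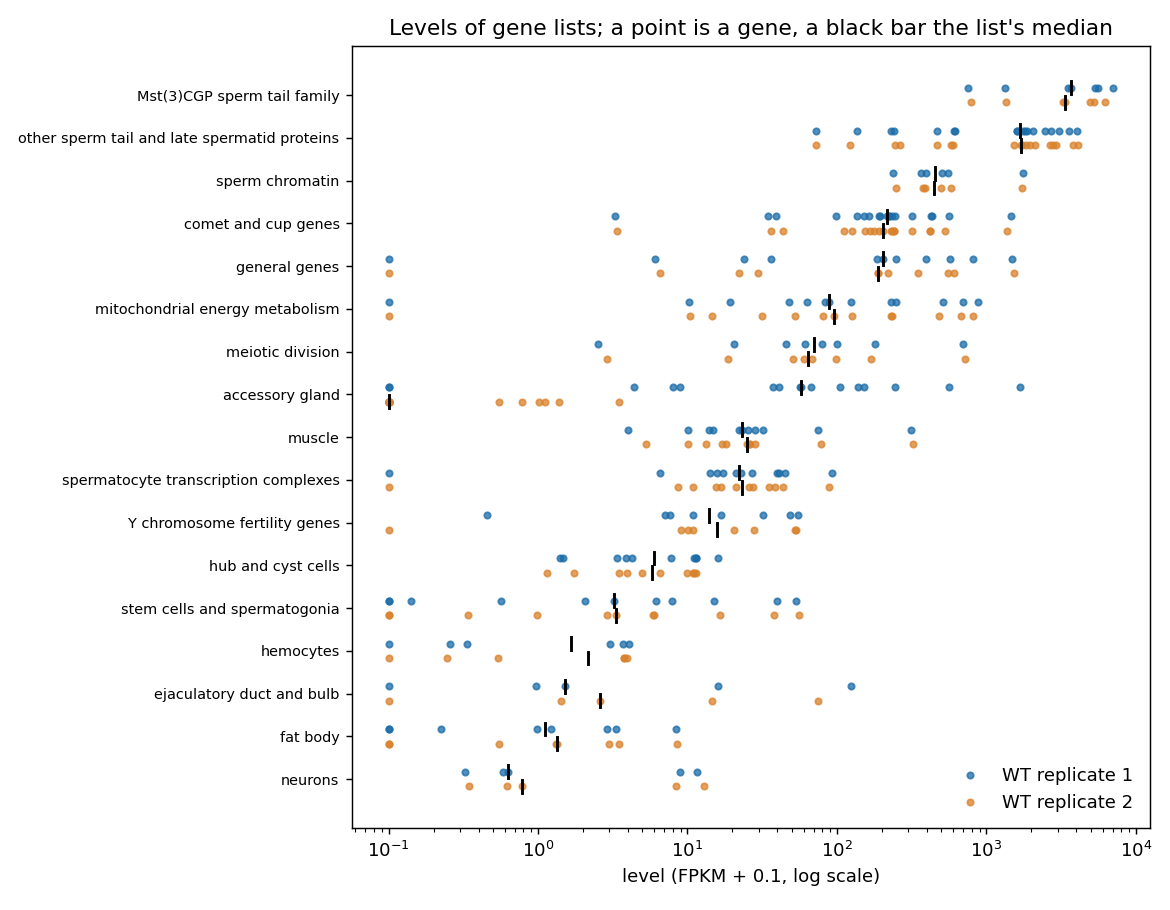
Levels (FPKM + 0.1, log scale) of the genes in 17 lists, ordered by the list's median, with blue points for WT replicate 1, orange points for WT replicate 2 and a black bar at the median of each library. Genes listed at 0 sit at 0.1. Sperm tail and sperm chromatin lists lie at the top, with medians of 3533, 1723 and 447 FPKM, and the accessory gland list is the one whose libraries separate, with medians of 57.2 FPKM in replicate 1 and 0 in replicate 2.

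Many housekeeping proteins have a second gene used in the testis. Of 24 pairs of a testis form and its general counterpart, the testis form was higher beyond both intervals in both libraries in 20, the general form in 2, and the intervals met in at least 1 library in 2. The median ratio of testis to general form was 3.53, and 11 pairs were over 5-fold. The pairs were picked for a known testis form, with earlier results of these data known, so these counts describe the listed pairs only. The Cdc25 gene twe was 146 times as high as stg, which was at 0.470 and 0.889 FPKM. The phosphoglycerate mutase gene Pglym87 (419 and 386 FPKM) was 36.2 times as high as Pglym78 (12.0 and 10.3 FPKM), and the thioredoxin gene TrxT (1757 and 1734 FPKM) 32.3 times as high as Trx-2 (57.9 and 50.2 FPKM).

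Structural and mitochondrial pairs went the same way. The cytochrome c gene Cyt-c-d (879 and 816 FPKM) was 21.4 times as high as Cyt-c-p (47.7 and 31.5 FPKM). The beta-tubulin of the sperm tail, betaTub85D (1749 and 1845 FPKM), was 18.3 times as high as betaTub56D (99.1 and 97.2 FPKM). The mitofusin gene fzo, which fuses spermatid mitochondria (137 and 122 FPKM), was 3.23 times as high as Marf (39.9 and 40.3 FPKM). The mitochondrial import genes tomboy40 and tomboy20 were 5.62 and 3.12 times as high as Tom40 and Tom20. Among translation factors, eIF4G2 (366 and 400.3 FPKM) was 17.1 times as high as eIF4G (22.3 and 22.6 FPKM), and eIF4E-3 (401 and 388 FPKM) was 2.01 times as high as eIF-4E (212 and 181 FPKM).

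Ratios among the transcription and proteasome pairs were mixed. Taf12L was 16.3 times as high as Taf12, can 6.41 times as high as Taf5, aly 3.84 times as high as mip130 and sa 3.03 times as high as Taf8. The intervals of mia (17.1 and 16.7 FPKM) and Taf6 (10.3 and 12.8 FPKM) met in a library, and nht (27.1 and 27.3 FPKM) was lower than Taf4 (41.9 and 46.1 FPKM). Of the proteasome pairs, Prosbeta5R1 was 5.13 times, Prosalpha6T 2.67 times, Prosalpha4T1 1.59 times and Prosbeta2R1 1.47 times as high as the general subunit. Prosalpha3T was the exception, at 25.1 and 20.9 FPKM against 140.0 and 118 FPKM for Prosalpha3. The hexokinase gene Hex-t2 (405 and 393 FPKM) was 6.75 times as high as Hex-A (68.9 and 49.4 FPKM), while Hex-t1 (57.1 and 50.0 FPKM) overlapped with it. The transport gene Ntf-2r was 1.89 times as high as Ntf-2, and the rule by which fragments were shared between such similar copies was not given.

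**Figure D4:**
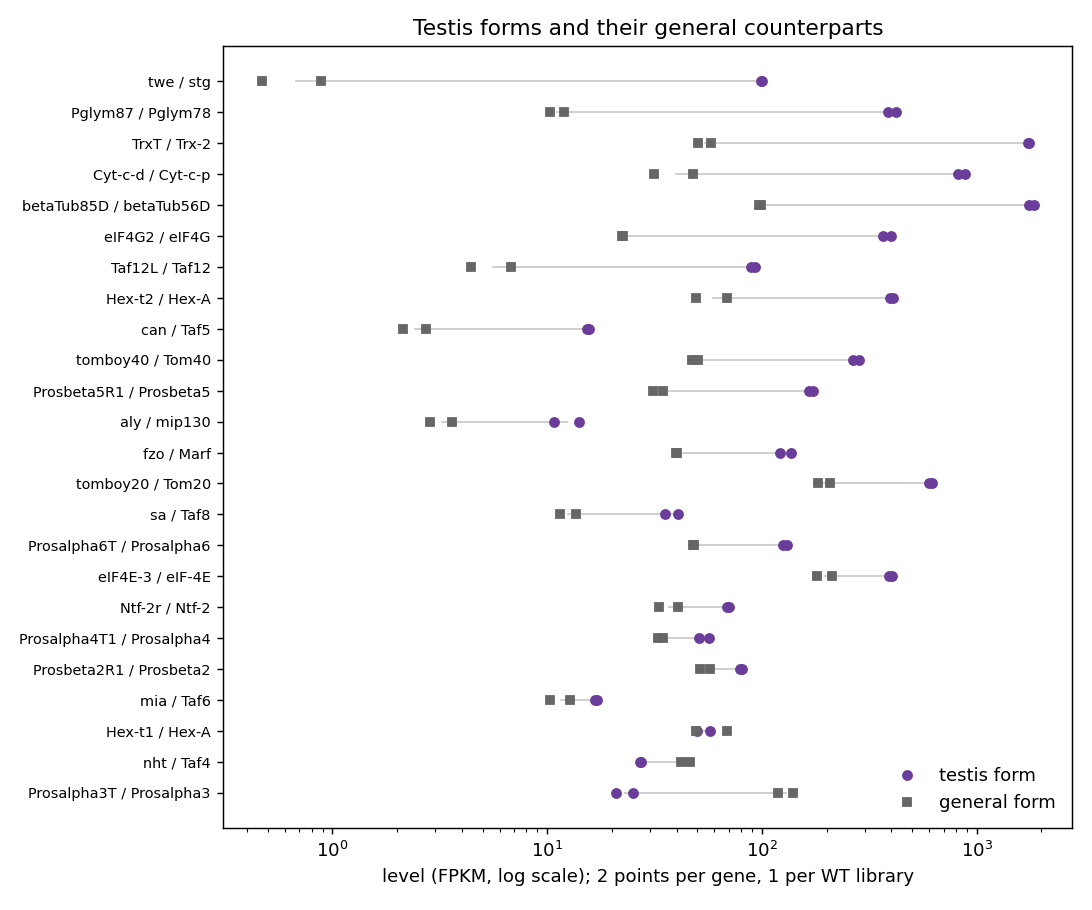
Levels (FPKM, log scale) of testis forms (purple circles) and general counterparts (grey squares), 1 point per WT library, with the pairs ordered by ratio and a grey line between the means. The testis form lies to the right in 20 of 24 pairs beyond the intervals, and Prosalpha3T and nht lie to the left of their counterparts.

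Levels differed between chromosomes. Among the genes whose mean reached 1 FPKM the median was 15.2 FPKM on 2L, 15.4 on 2R, 15.0 on 3L, 14.7 on 3R, 14.7 on chromosome 4, 10.4 on X and 9.75 on Y. The median of the 1652 X genes was lower than that of the 9008 autosomal genes by 0.53 on the log2 scale in replicate 1 and by 0.45 in replicate 2. By the mean of the libraries the difference was -0.49, against -0.30 over all genes and -0.28 over genes of mean 5 FPKM or more. The X held 15.4% of the gene names but 8.81% and 9.09% of the summed FPKM. Of its genes 10.4% (172) were at 100 FPKM or more, against 17.3% (1556) of the autosomal ones.

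The leading X genes were largely non-coding. Of the 6 X genes among the 100 most abundant, 4 were non-coding RNAs: CR32657, CG32652 (1866 and 1869 FPKM), CR32658 (1842 and 1794 FPKM) and CR32661 (1259 and 1233 FPKM). The others were TrxT and CG1394 (1027 and 1079 FPKM). The remaining non-coding RNAs among the 100 were CR9284 on 2R (2143 and 2085 FPKM), the precursor mir-995 and the small RNAs described above. Among all names, 771 of 2273 non-coding genes reached 1 FPKM in both libraries, against 9262 of 13699 protein-coding genes (33.9% and 67.6%).

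The small chromosomes were led by other genes. On chromosome 4, RpS3A, a ribosomal protein gene, was at 296 and 271 FPKM and Arf102F, a small GTPase gene, at 175 and 135 FPKM with separated intervals. On Y, CG42620 was at 154 and 62.5 FPKM, with an interval that reached 0 in replicate 2 and an estimated 5 and 2 fragments. Its listed locus is a small part of the gene now called CCY. ARY was at 55.1 and 52.3 FPKM. The male fertility gene kl-5, which encodes a dynein heavy chain of the sperm tail, was at 16.7 and 20.2 FPKM with separated intervals, and the phosphatase gene Pp1-Y2 at 31.8 and 27.9 FPKM. CG40948, listed in a row on Y and in another on an unplaced sequence, was at 48.7 and 53.2 FPKM, all of it from the row on Y. Pp1-Y1 was at 0.359 FPKM in replicate 1 and listed at 0 in replicate 2. A list of 8 Y-linked genes held ARY, CG40948, Pp1-Y1, Pp1-Y2, Ppr-Y, kl-2, kl-3 and kl-5. Of these, 7 were at 1 FPKM or more in both libraries, and the median of the 8 was 14.6 FPKM.

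A listed 0 was not read as absence. Tbp, which encodes the TATA-binding protein of every cell, and sesB, which encodes a mitochondrial ADP/ATP carrier, were listed at 0 in both libraries, as were the germ cell genes nos and aub and the meiotic arrest gene tomb. Of 13699 protein-coding genes 1957 (14.3%) were at 0 in both. The share was 19.6% of the 6225 genes whose locus overlaps another and 9.86% of the 7474 others. The reason for single zeros was not tested.

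Agreement between the libraries was close for most genes. Of the same 10749 genes, 10078 or 93.8% had overlapping intervals, and in 70.0% each level lay inside the interval of the other library. Across these genes Pearson's r of log2(FPKM + 1) was 0.939 and Spearman's rho 0.947, as a description of libraries made with the same protocol, since genes are not independent replicates. The median ratio of replicate 2 to replicate 1 was 0.989 among genes at 10 FPKM or more in both. Of the 671 genes with separated intervals, 446 were above 0 in both libraries, and 365 of those differed by less than 2-fold. In 225 the level was listed at 0 in 1 library. The locus overlapped another gene in 165 of these 225 (73.3%), against 44.5% of all 10749.

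Precision depended on level. The interval reached 50.0% and 48.5% of the level to either side for genes of 1 to 5 FPKM (medians), 17.6% and 17.3% for genes of 10 to 50 FPKM, and 4.38% and 4.37% for genes of 1000 FPKM or more. The share of separated genes was 6.39%, 5.17% and 26.3% in these classes. The median ratio of the larger to the smaller level was 1.26 in the lowest of them and 1.05 in the highest, so that abundant genes separated more often at a smaller ratio. The direction also followed length: transcripts under 500 bases were lower in replicate 2 by a median of 0.18 on the log2 scale, with 63 separated genes higher in replicate 1 and 3 higher in replicate 2. Of the 63, 14 bore seminal fluid names, and without genes of such names the median was -0.17. Transcripts over 5000 bases were higher in replicate 2 by a median of 0.07, with 12 and 80 separated genes.

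Genes of the seminal fluid were among the largest differences between the libraries. These proteins are made by the accessory glands, which open into the male tract beside the testes, and are passed to the female with sperm. Of 16 accessory gland genes found, 14 had separated intervals, all higher in replicate 1, where all genes gave 4.04%, and the other 2 were listed at 0 in both libraries. Summed, the list stood at 3150 FPKM in replicate 1 and 7.74 FPKM in replicate 2, or 0.370% and 0.000954% of all FPKM. Acp98AB alone gave 1670.0 FPKM of the replicate 1 sum, on an estimated 61 fragments of a 175-base transcript. Acp36DE, with a transcript of 2923 bases, gave 56.7 FPKM on an estimated 477 fragments, so the sum leans on short transcripts. Acp98AB (1670.0 FPKM), SP, the sex peptide that alters the behaviour of mated females (559 FPKM), Acp33A (245 FPKM), Acp53Ea (139 FPKM), Acp63F (66.5 FPKM), Acp62F (37.4 FPKM), Acp32CD (8.75 FPKM) and Acp76A (7.88 FPKM) were listed at 0 in replicate 2. Acp53C14a was at 153 and 0.918 FPKM, and Acp36DE, which acts in sperm storage, at 56.7 and 3.40 FPKM.

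Further genes showed the same pattern. With the sex peptide gene SP and all names of the Acp and Sfp type, 47 genes summed to 4155 FPKM in replicate 1 and 17.5 FPKM in replicate 2. Of these, 36 were at 1 FPKM or more in replicate 1 and 6 in replicate 2. They made up 7 of the 27 separated genes that differed by 10-fold or more above 0 in both libraries. Of the 94 separated genes listed at 0 in 1 library and at 10 FPKM or more in the other, they made up 17. Most genes of both kinds bore other names, but a name alone does not settle whether a gene belongs to the seminal fluid. The 10 genes with the largest ratios among those above 0 in both libraries and at 5 FPKM or more in the higher one were all higher in replicate 1. They were BG642312 (265 and 1.37 FPKM), Acp53C14a, Acp53C14b (104 and 0.683 FPKM), msopa (170.3 and 1.43 FPKM), the serpin gene Spn28F (39.8 and 0.508 FPKM), Acp26Ab (57.7 and 1.27 FPKM), lectin-29Ca (18.1 and 0.417 FPKM), Acp26Aa, which encodes ovulin (40.9 and 1.02 FPKM), CG30438 (14.8 and 0.492 FPKM) and CG18284 (20.3 and 0.723 FPKM). The 5 highest separated genes listed at 0 in 1 library were all at 0 in replicate 2: Mst57Db at 4292 FPKM in replicate 1, with an estimated 400 fragments, then Acp98AB, CG42481 (983 FPKM), CG43147 (935 FPKM) and CG42852 (700.0 FPKM).

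The ejaculatory bulb gene PebIII was higher in replicate 1 as well, at 124 and 74.4 FPKM with separated intervals, whereas the esterase gene Est-6 was at 15.8 and 14.4 FPKM and Dup99B, a relative of the sex peptide made in the ejaculatory duct, was listed at 0 in both. Peb was at 0.866 and 2.50 FPKM and PebII at 1.41 and 1.33 FPKM. The part of tissue other than testis in these differences was not tested. Without the 47 genes bearing SP, Acp or Sfp names, 642 genes had separated intervals in place of 671.

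Heat shock genes differed mostly in the other direction. Of 19 found, 17 had a mean of at least 1 FPKM. Of these, 9 were higher in replicate 2 with separated intervals, where all genes gave 2.2%, 1 was higher in replicate 1, where all genes gave 4.04%, and 7 overlapped. Hsp70Bb, a stress-induced chaperone gene, was at 0.555 FPKM in replicate 1 and 6.73 FPKM in replicate 2, Hsp67Bc at 3.14 and 11.3 FPKM, Hsp68 at 71.0 and 97.5 FPKM and Hsp23 at 138 and 169.6 FPKM. Hsp22 was listed at 0 in replicate 1 and at 21.7 FPKM in replicate 2. Its locus (3L, 9373997 to 9374964) lies wholly inside the locus listed for Hsp67Bb (9372722 to 9374964), which was at 156 and 106 FPKM. Fragments of the shared stretch can be assigned to either gene, so their opposite directions cannot be read separately. The Hsp70 genes are near-identical copies, so their fragments may have been shared among them.

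**Figure D5:**
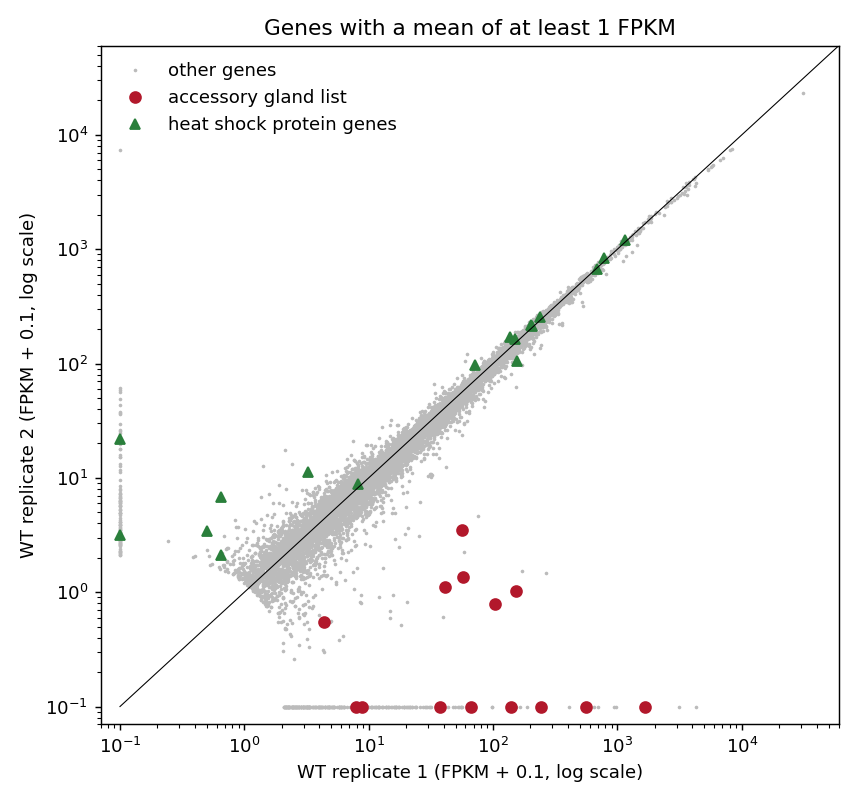
Level in WT replicate 2 against WT replicate 1 (FPKM + 0.1, both axes log) for the 10749 genes of mean 1 FPKM or more, with the line of equal levels. Red circles are the 14 accessory gland genes in this range, all far below the line, and green triangles the 17 heat shock genes, of which 9 lie above it with separated intervals. Points at 0.1 are genes listed at 0.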

How the data were processed

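Polyadenylated RNA of 2 wild-type testis libraries was analysed, and samples were grouped by the genotype label. Per the submitters' processing notes, the tools were TopHat and Cufflinks and the build was dm6. Their versions, settings, annotation and strand option were not given. Per the file headers, the authors deposited FPKM per gene and the bounds of its 95% interval. Each library held 16745 rows of 16510 names; 380 rows shared 145 names and were added up per name, with half-widths combined in quadrature. The fragments behind a level were estimated by taking the half-width of its interval as 2 SD of a Poisson count, which comes out too low for abundant genes and genes with several isoforms. Genes of 5 to 20 FPKM gave a depth of about 3.74e+06 and 4.00e+06 fragments. Read counts were not used, and intervals cover error within a library only.

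Names matched the Ensembl annotation of dm6 for 16300 genes (98.7%), which gave biotype, length and overlap. Levels were summarised with Python 3.11.15 and pandas 2.3.3. The overlap procedure was run on simulated Poisson counts with intervals of 2 SD, which checks the procedure and not the deposited intervals. No group was set against another, so no test was made. Correlations used a pseudocount of 1. The genes and lists were chosen with earlier results of these data known. Named genes were the 30 highest, the 4 highest per list with members at 0 in 1 library, the 2 highest per chromosome, all pair members, and among separated genes the 10 largest ratios and the 5 highest listed at 0. The heat shock genes, other accessory gland members, leading non-coding RNAs, scpr-C, sm, Syp, CG1394, CG17377, CG18449, CG2127, CG8701, S-Lap2, janB, CR32658, mir-995, s-cup, Mhc, bt, Dup99B, Tbp, sesB, nos, aub, tomb and the family members of the closing section were named after their values were seen.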

Additional observations from a re-analysis of the deposited data

How the results depend on the processing

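The 100 most abundant genes held 31.3% of the summed FPKM. Ranked anew by each measure, the first 100 held 25.3% when levels were multiplied by transcript length and 17.5% of the estimated fragments. The fragment estimate comes out too low for abundant genes, so the 17.5% is not directly comparable. With each library ranked on its own, the share of FPKM was 31.8% in replicate 1 and 31.2% in replicate 2. Overlapping intervals were found in 93.8% of genes. The share was 94.4% among genes above 0 in at least 1 library, 95.7% without genes listed at 0, 94.8% without overlapping loci and 70.0% when each level had to lie inside the other interval. The 671 separated genes became 446, 312 and 3228 without listed zeros, without overlapping loci and with that stricter rule. Pearson's r of 0.939 became 0.866 with a pseudocount of 0.1 and 0.966 with 5. It was 0.956 for genes above 0 in at least 1 library, 0.988 for genes above 0 in both and 0.947 without seminal fluid names. The X minus autosome median of -0.49 became -0.30 over all genes, -0.28 at a mean of 5 FPKM or more and -0.61 for protein-coding genes. The cause of these shifts was not tested. The number of genes at 1 FPKM or more in both libraries stayed within 1.5-fold in all 6 alternatives, between 7615 and 10750. Of 40 alternatives over 6 results, 22 moved less than the set limits. A reversal could be scored only for the X minus autosome median, which kept its sign in all its alternatives. The alternatives on seminal fluid names, overlapping loci, few fragments and transcript length were added after the data were seen. Leaving out a library gives no value where both are compared. The promoter motif share was not run. No paired analysis was possible because no test was made between groups. At 1 to 5 FPKM, intervals of about 50.0% of the level limit what can be told.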

Other observations

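Further gene families were described by their levels. All 93 cytosolic ribosomal protein genes were at 1 FPKM or more in both libraries, with a median of 185 FPKM and a range of 14.6 to 3912 FPKM (means), and 11 of them had intervals separated in favour of replicate 1 and 1 in favour of replicate 2, where all genes gave 4.04% and 2.2%. Their longest transcripts had a median of 877 bases. Among all 2113 genes with transcripts of 500 to 1000 bases, 106 separated in favour of replicate 1 and 27 in favour of replicate 2. Whether length plays a part was not tested. The 72 mitochondrial ribosomal protein genes had a median of 14.1 FPKM. Of 10 tubulin genes, betaTub85D and alphaTub84B (1478 and 1532 FPKM) were far above alphaTub84D, at 315 and 318 FPKM, and alphaTub67C, a maternal alpha-tubulin gene, was at 0.475 and 0.296 FPKM. Of 28 dynein chain genes, 25 were at 1 FPKM or more, led by the light chain gene robl62A at 1652 and 1713 FPKM and by Cdlc2 at 793 and 819 FPKM. The heavy chain genes Dhc36C and Dhc98D were at 55.0 and 58.7 FPKM and at 34.8 and 41.2 FPKM.

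Families of sensory and epidermal proteins were mostly low. Of 119 odorant and gustatory receptor genes, 15 were at 1 FPKM or more in both libraries and the highest had a mean of 10.5 FPKM. Of 50 odorant-binding protein genes, 14 reached that level, and Obp44a stood at 2389 and 2004 FPKM, among the 100 most abundant genes of the testis, with intervals separated in favour of replicate 1. Of 106 cuticle protein genes 23 reached 1 FPKM, and of 83 cytochrome P450 genes 39. Among long transcripts, CG45186, now called Svil, with a longest transcript of 14937 bases, was at 356 and 370.4 FPKM. It ranked 361 by level and 11 by level times length.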
